A study of Arabidopsis thaliana with 13 samples.

Results

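The genes described here stepped up at 24 h in cotyledons cultured to form vascular cells and stayed above their early level to 72 h. They were 128 of 10982 genes measured, and 17 of the 128 have a gene symbol while 111 have a locus name only. They were chosen by their own values on these arrays, so those values are a description. On log2 values, each array centred on its median, a gene had to be at least 1 higher at 24 h than the highest of 6, 12 and 18 h. Their mean over 30 to 48 h had to lie at least 1 above their mean over 6 to 24 h, and their mean over 54 to 72 h within 0.75 of that over 30 to 48 h. Their mean over 6 to 24 h had to be no more than 1 below the value at 0 h. In all 132 genes met these values, and 4 were left out by name: the Aurora kinase genes AUR1 and AUR2, AT5G15510 and the defensin-like gene LCR25.

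The samples were cotyledons of 6-day-old Arabidopsis thaliana seedlings, accession Col-0, taken every 6 h from 0 to 72 h in an induction medium, a system called VISUAL. Its active compounds, per the labels, were 1.25 mg/L of 2,4-D (a synthetic auxin), 0.25 mg/L of kinetin (a cytokinin) and 10 µM of bikinin, an inhibitor of GSK3-like kinases. By their labels the 13 samples differ in the time after induction alone, and beyond the 0 h sample there was no comparison without the medium. Each time was 1 array with no replicate, and neighbouring times stood in for replicates in each test.

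In VISUAL, leaf mesophyll cells lose their identity, pass through a procambium-like state and become xylem or phloem cells. A plant cell that divides makes a set of proteins for mitosis shortly before and during it: checkpoint proteins that watch the attachment of chromosomes to the spindle, the passenger complex around Aurora kinase, proteins that condense and untangle chromosomes, and kinesins and kinases of the phragmoplast, the microtubule array that builds the new cell wall. The transcripts of many such genes appear together in G2 and M phase and are low in cells that have stopped dividing.

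The arrays formed 2 sets by the level of the deposited values, with medians of 5.82 to 5.99 in the 8 arrays of 30 to 72 h, against 5.15 to 5.35 in the 5 arrays of 0 to 24 h. Array set and time therefore cannot be told apart in any comparison across 24 and 30 h. The step from 18 to 24 h lies within the earlier set, and the comparisons within the second and the third day lie within the later one. On the values as deposited the median gene was 0.42 higher over 30 to 48 h than over 6 to 24 h, and after centring it was 0.25 lower. The log base is not given in the sources used here. Values were read as log2, on which each fold depends.

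Of the 10982 genes, 170 (1.55%) had a 24 h value at least 1 above the highest of 6, 12 and 18 h, and 99 (0.901%) had one at least 1 below the lowest. The 128 member genes were all chosen among those 170, so the share carries no information about them. Their median value was 5.51 at 0 h, 5.67 at 6 h, 5.87 at 12 h, 6.03 at 18 h and 7.65 at 24 h, and it reached 8.94 at 60 h. The step at 24 h had a median of 1.47 (2.76-fold) and ran between 1.01 and 2.72. The median over all genes was 6.90 at both 18 and 24 h, which the centring of each array largely fixes.

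**Figure D1:**
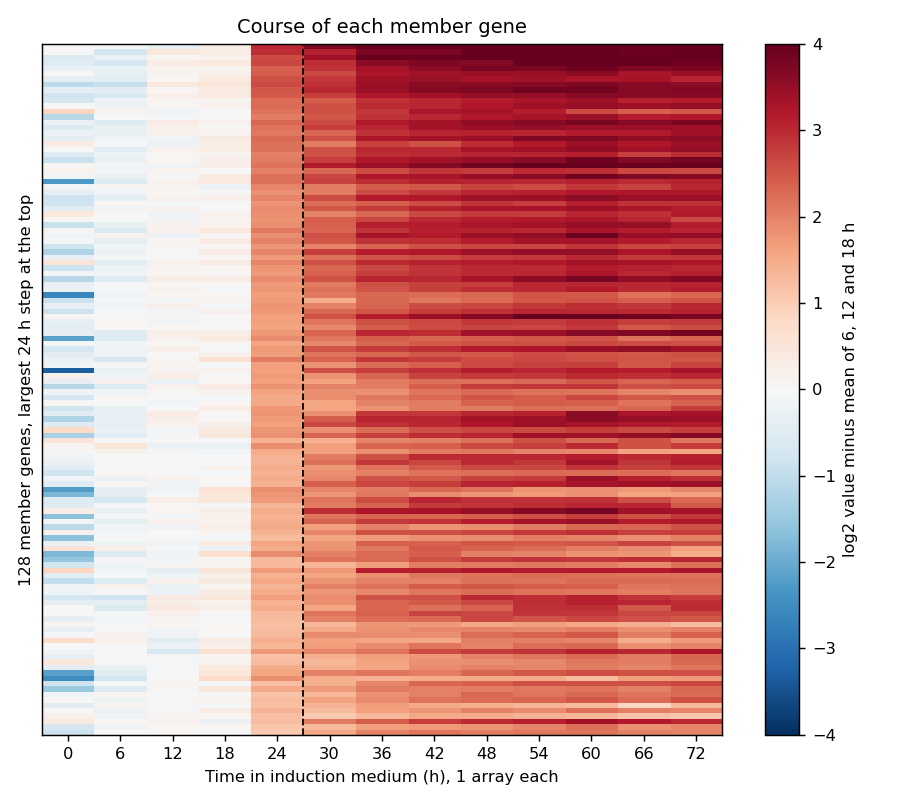
Each row is 1 of the 128 member genes, ordered by the size of the 24 h step with the largest at the top, and each column is 1 array, by hours in induction medium. Colour gives the log2 value minus the gene's mean of 6, 12 and 18 h (values beyond 4 take the end colour), and the dashed line marks the border between the array sets. The columns of 6 to 18 h are pale, that of 24 h is red in every row, and those of 36 to 72 h are darker.

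No detection calls were used, so whether a gene was off before 24 h cannot be told. In 117 of the 128 genes the mean of 0 to 18 h was at or above 4.03, the lowest mean level of any gene kept. The other 11 genes had passed the filter on low values through their later arrays, so that they had to differ between early and late. That level is a limit of the filter, not a detection limit, so the genes are described by their step at 24 h and not as switched on. With whole cotyledons on each array, more cells in which a gene is active and more RNA per cell cannot be told apart.

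The checkpoint and passenger genes were BUBR1, BUB3.2 and WYR. BUBR1, a spindle assembly checkpoint gene, stood at 8.34 at 24 h and between 8.95 and 9.85 (median 9.64) in the 8 arrays of 30 to 72 h, against 6.03, 6.31, 6.61 and 6.45 at 0, 6, 12 and 18 h. The 4 early arrays of BUBR1 lay below all 9 from 24 h on, as they did in each of the 128 genes (8.72% of all genes), which the rule fixes in part. BUB3.2, of the family that partners such checkpoint proteins, stood at 7.27 at 24 h and between 7.60 and 8.23 later (median 7.92), against 5.91, 5.97, 5.72 and 6.14 at 0 to 18 h. WYR, which encodes the plant counterpart of the passenger complex scaffold INCENP, was among the smaller steps, at 6.63 at 24 h and 6.73 to 7.69 later (median 7.30), against 5.86, 5.38, 5.32 and 5.52 at 0 to 18 h. WYR was lower at 6, 12 and 18 h than at 0 h and had its highest value at 72 h, while BUBR1 and BUB3.2 were highest at 60 h.

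TOPII encodes topoisomerase II, which untangles sister DNA molecules, and 3xHMG-box1 a protein that binds condensed mitotic chromosomes. TOPII stood at 8.83 at 24 h and at 9.32 to 10.15 from 30 h on (median 9.91), against 6.80, 7.06, 7.12 and 7.18 at 0 to 18 h. 3xHMG-box1 stood at 7.28 at 24 h and at 7.75 to 8.23 from 30 h on (median 8.09), against 5.18, 5.45, 5.60 and 5.78 at 0 to 18 h. Both climbed little over 0 to 18 h, against a step of 1.65 for TOPII that was 3.13-fold.

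Of the cytokinesis and microtubule genes, KINESIN-12B, a phragmoplast kinesin gene, made the largest step, 1.83 (3.56-fold). It stood at 7.67 at 24 h and at 7.75 to 8.73 later (median 8.35), against 5.61, 5.81, 5.83 and 5.47 at 0 to 18 h, so that 18 h was its lowest array. FU, which encodes the kinase FUSED needed for the phragmoplast to expand, stood at 8.18 at 24 h and at 8.51 to 9.32 later (median 9.12), against 5.99, 6.72, 6.69 and 6.59 at 0 to 18 h. The beta-tubulin gene TUB7 differed from both in being higher at 18 h than at 0, 6 and 12 h. It stood at 7.52 at 24 h and at 7.69 to 8.64 later (median 8.40), against 5.66, 5.72, 5.78 and 6.29 at 0 to 18 h.

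**Figure D2:**
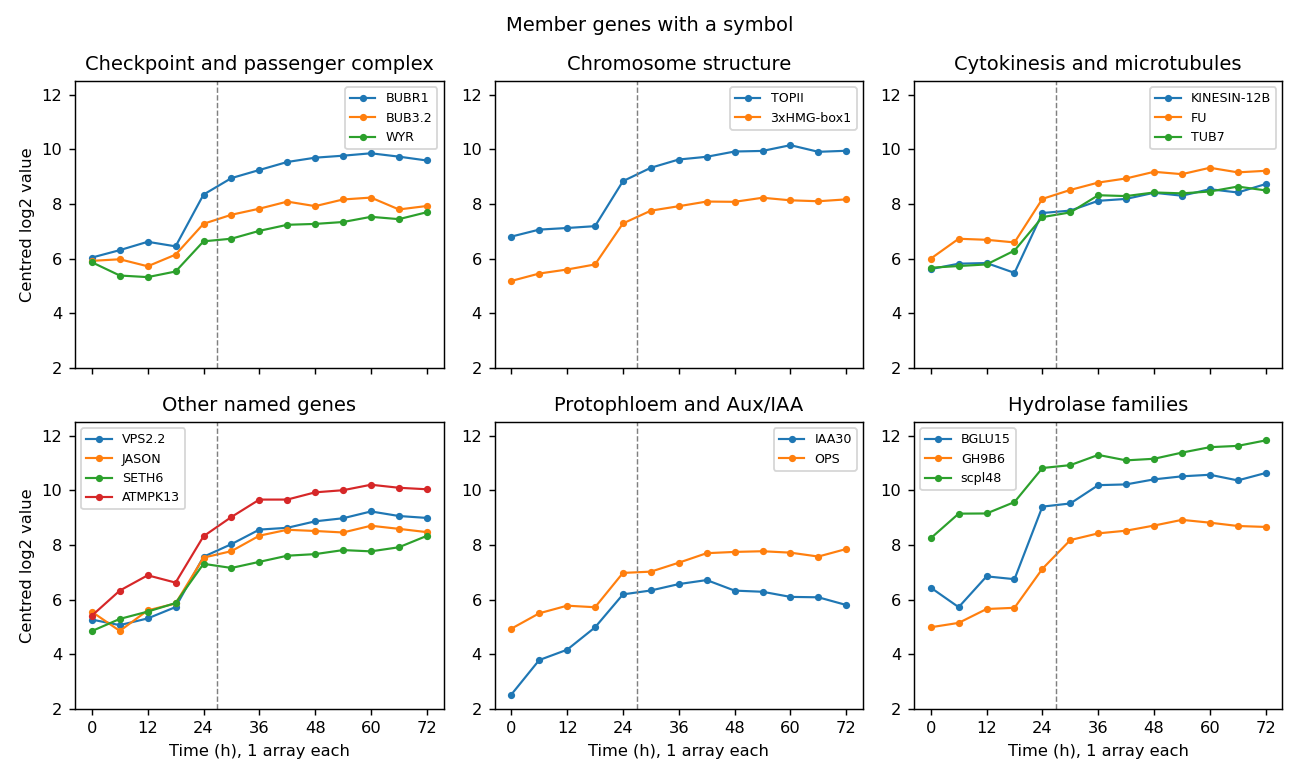
Centred log2 value (vertical axis) against time in hours (horizontal axis) for the 17 member genes with a symbol, 1 point per array, in panels by role. The dashed line lies between the array sets. BUBR1, TOPII and KINESIN-12B changed less from 0 to 18 h than at 24 h, while IAA30 climbed through those hours and was highest at 42 h.

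The other 9 genes with a symbol belong to other families. BGLU15, of the beta-glucosidase family, had the largest step of the 17, 2.55 (5.87-fold), at 9.40 at 24 h and 9.52 to 10.64 later (median 10.38), against 6.44, 5.72, 6.85 and 6.75 at 0 to 18 h. GH9B6, of glycosyl hydrolase family 9, whose members include cellulases, was slower, with 7.13 at 24 h and 8.18 to 8.92 later (median 8.68), against 4.99, 5.15, 5.65 and 5.70 at 0 to 18 h. Of its rise from the mean of 6 to 18 h to the mean of 30 to 48 h, 55.0% was present at 24 h, against 81.4% for BGLU15. These shares, and those given for other genes, cross the border of the array sets and rest on the centring. The serine carboxypeptidase-like gene scpl48 had one of the smaller steps, 1.25, with 10.82 at 24 h and 10.92 to 11.83 later (median 11.34), against 8.25, 9.15, 9.15 and 9.57 at 0 to 18 h.

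OPS, which acts in the differentiation of protophloem, the first sieve elements, stood at 6.98 at 24 h and at 7.02 to 7.85 later (median 7.71), against 4.93, 5.50, 5.78 and 5.72 at 0 to 18 h. IAA30, which encodes an Aux/IAA repressor of auxin response, stood at 6.19 at 24 h and at 5.80 to 6.71 later (median 6.31), against 2.52, 3.78, 4.16 and 4.98 at 0 to 18 h. IAA30 is among the 11 genes that passed the filter through their later arrays. It was on the way up before 24 h, and after centring it lay below its 24 h value at 72 h. That fall rests on the centring, being smaller than the gap between the deposited array medians, 5.35 at 24 h and 5.82 at 72 h. The correlation of IAA30 with the mean course of the other 127 genes was 0.90 over the 13 arrays, the second lowest after AT3G28420 (0.84). It is given as a description because the rule fixes much of it.

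VPS2.2, of the ESCRT-III family of membrane-remodelling proteins, stood at 7.57 at 24 h and at 8.03 to 9.23 later (median 8.92), against 5.27, 5.06, 5.31 and 5.73 at 0 to 18 h. JASON, known from spindle orientation in male meiosis, stood at 7.54 at 24 h and at 7.77 to 8.70 later (median 8.49), against 5.55, 4.85, 5.60 and 5.86 at 0 to 18 h. Both reached their highest value at 60 h. The MAP kinase gene ATMPK13 stood at 8.32 at 24 h and at 9.02 to 10.21 later (median 9.97), against 5.41, 6.33, 6.89 and 6.62 at 0 to 18 h, and had 57.7% of its rise at 24 h. SETH6 stood at 7.31 at 24 h and at 7.16 to 8.33 later (median 7.72), against 4.85, 5.29, 5.56 and 5.87 at 0 to 18 h, and had 92.4% of its rise at 24 h.

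The largest step of the 128 belonged to AT3G42725, 2.72 (6.59-fold). It stood at 6.31 at 24 h and reached 8.33 at 60 h, against 3.28, 3.29, 2.98 and 3.58 at 0, 6, 12 and 18 h. After BGLU15 came AT3G02120 with a step of 2.48, standing at 6.02 at 24 h, against 2.84 to 3.54 at 0 to 18 h, and AT2G42110 with 2.30. AT5G37240, AT5G48310, AT4G22860, AT4G28430, AT2G28620, AT4G26660, AT4G10843 and AT5G16250 followed, with steps between 2.09 and 2.25. The sources used here give these loci no symbol, and no function is stated for them. AT3G42725 and AT3G02120 lay under 4.03 at each hour from 0 to 18 h. They are thus among the 11 genes that passed the filter through their later arrays, and their steps start from low values. Of the 12 genes with the largest steps, AT4G28430 had the largest difference before the step, with 6.46 at 18 h, against 4.91 at 0 h.

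At the threshold, AT5G33300, AT1G18550 and AT1G05440 lay just inside with steps of 1.01, 1.03 and 1.04, and AT5G57567, AT4G12540 and AT4G03292 just outside with 0.99, 0.99 and 0.98. In all 11 member genes had a step between 1 and 1.1, and 12 genes that met the other values had one between 0.9 and 1. AUR3, which the rule also leaves out by name, had a step that fell just short of 1. AUR1, AUR2, AT5G15510 and LCR25 had steps of 1.59, 1.51, 1.98 and 3.53.

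The member genes varied more in what preceded the step. The value at 18 h was at least 0.5 above that at 6 h in 43 of the 128 genes, at least 0.5 below it in 1 and within 0.5 in 84, against 11.3% above and 18.6% below over all 10982 genes. At 6 h, 14 of the 128 were at least 1 above 0 h (6.75% of all genes) and 3 at least 1 below (4.12% of all genes). AT1G03820, chosen after its values were seen, was the farthest of these, at 4.64 at 6 h, against 1.64 at 0 h. From 0 to 72 h the net difference ran between 0.88 and 6.59 on the log2 scale, with a median of 3.33 (10.0-fold).

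The step at 24 h was not the end of the change. Of the difference between the mean of 30 to 48 h and the mean of 6 to 18 h, a median of 69.9% was present at 24 h, with a range of 46.1 to 126%. The value at 24 h lay below each of the 8 later arrays in 115 of the 128 genes (19.2% of all genes), which the rule fixes in part. It did so in 217 (92.3%) of the 235 genes that met the rule but for a 24 h step of at least 1. From 24 to 30 h, across the border of the array sets, 118 of the 128 were higher (34.5% of all genes, 95.3% of the 235), with a median difference of 0.32. From 30 to 36 h, within the later set, 125 of the 128 were higher (59.2% of all genes, 90.2% of the 235), with a median of 0.38. In 10 of the 128 genes 24 h was above 30 h after centring, SETH6 among them. That count rests on the centring, which removed a gap between the deposited medians, 5.35 at 24 h and 5.89 at 30 h. The gap is larger than the lowest difference of 30 h minus 24 h among the 128, -0.39.

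**Figure D3:**
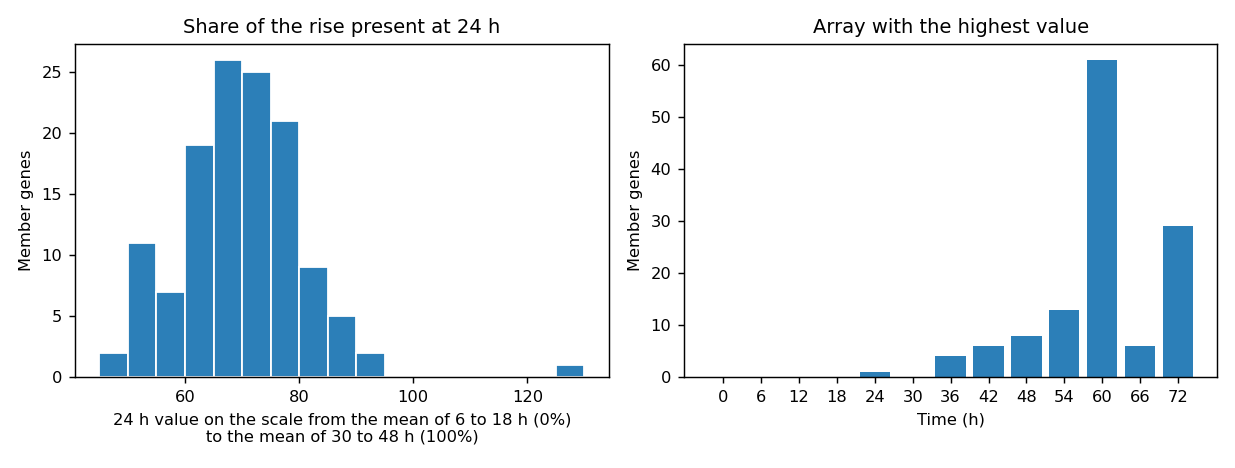
On the left, the number of the 128 member genes (vertical axis) by the share in percent of the rise, from the mean of 6 to 18 h to the mean of 30 to 48 h, that was present at 24 h. This share crosses the border between the array sets and rests on the centring. On the right, the number of member genes by the hour of their highest array, with 61 at 60 h and 29 at 72 h.

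The comparison of 42 and 48 h with 30 and 36 h asked whether the climb went on through the second day. The rule did not use it directly, since it took the mean of those 4 arrays. It did keep genes that were higher on the second day than on the first, which can favour such a climb. The counts are therefore given beside those of the 235 genes that met the rule but for the 24 h step. The difference was above 0 in 126 of the 128 genes (36.2% of all genes, 93.6% of the 235). Its median was 0.41, against a median of -0.08 over all genes. Both later arrays were above both earlier ones in 101 of the 128 genes (16.5% of all genes, 66.0% of the 235). They were below them in 0 of the 128 (40.2% of all genes, 3.4% of the 235). No single gene passed the test: limma required a log2 difference of at least 1 and a p under 0.05 after Benjamini-Hochberg adjustment, and by it 0 of the 128 genes were called, as were 0 of 10982 (0%) in either direction. At an unadjusted p under 0.05, 55 of the 128 (43.0%) were higher and 0 lower. Over all genes 350 (3.19%) were higher and 1249 (11.4%) lower, and of the 235 genes 77 (32.8%) and 1 (0.426%). With array weights, the fit that called most, 8 genes were higher and 85 lower, and 0 of the 128 were among them.

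BUBR1 had a mean of 9.61 over 42 and 48 h, against 9.09 over 30 and 36 h, a difference of 0.52 ± 0.14 (SE, n = 2 arrays each, limma adjusted p = 0.165). OPS had one of 0.54 ± 0.16 (SE, adjusted p = 0.186) and FU one of 0.41 ± 0.14 (SE, adjusted p = 0.223), both in limma. The lowest adjusted p among the 128 was 0.131, for AT1G30600 and AT4G21820, with differences of 0.70 and 0.68. At the other end scpl48 had a difference of 0.02 and IAA30 of 0.07, and both were below 0 without the 30 h array (-0.17 and -0.05). The median of the 128 was 0.20 without the 30 h array and 0.62 without the 36 h array, so that much of its size rested on these arrays, while the number of genes above 0 stayed at 116 or more whichever array was left out.

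The 235 genes that met the rule but for a 24 h step of at least 1 moved in the same direction within the second day, with a median difference of 0.31 between 42 and 48 h and 30 and 36 h, above 0 in 220 of them. They are no set without a step, since their median value was 6.50 at 24 h, against 5.73 at 18 h. A difference between both sets was not tested.

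**Figure D4:**
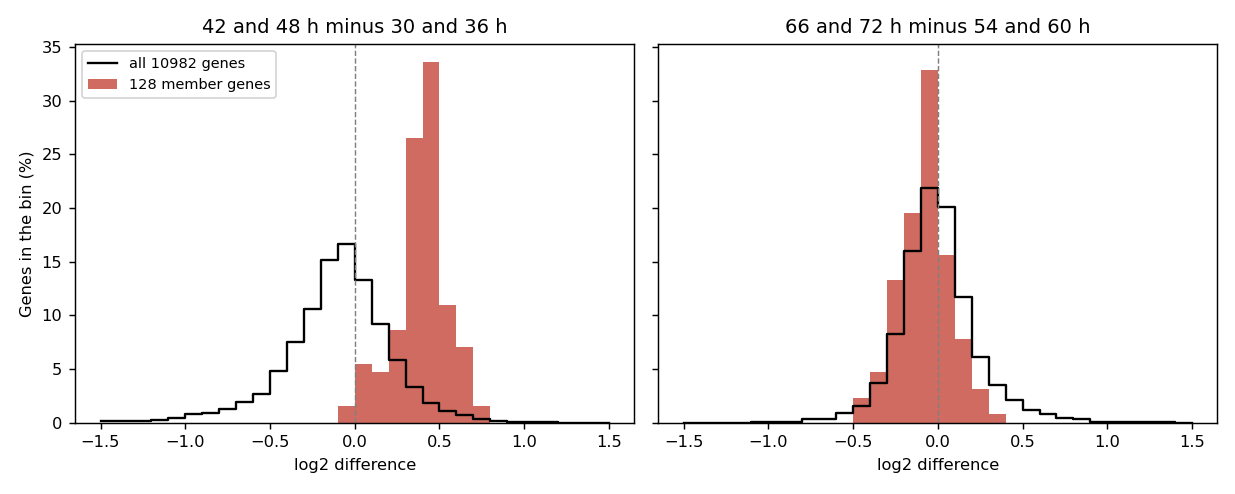
Share of genes in percent (vertical axis) by log2 difference in bins of 0.1 (horizontal axis), within the second day on the left and within the third day on the right, for the 128 member genes (bars) and all 10982 genes (line). A share of 0.237% of all genes on the left and 0.091% on the right lies outside the plotted range. The bars on the left lie to the right of 0 but for 2 genes, and those on the right lie around 0.

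The comparison of 66 and 72 h with 54 and 60 h asked whether the level held on the third day. The difference was below 0 in 93 of the 128 genes (53.2% of all genes, 71.1% of the 235). Its median was -0.06, against -0.01 over all genes, and it ran from -0.47 to 0.34. Both later arrays were below both earlier ones in 48 genes (22.6% of all genes) and above them in 10 (17.1% of all genes). In limma 0 of the 128 were called, against 1 of 10982 genes higher (0.00911%) and 0 lower (0%), and at an unadjusted p under 0.05 4 (3.12%) were lower and 0 higher, against 230 (2.09%) and 313 (2.85%) over all genes. The interval allowed by 2 arrays a side is wide for a single gene, the median SE over the 128 being 0.18.

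The step within the third day was below that within the second day in 126 of the 128 genes (38.6% of all genes), by a median log2 difference of -0.49. The share was 94.5% of the 235 genes that met the rule but for the 24 h step. This comparison is made of both comparisons above and shares all their arrays, so with a third-day median near 0 its count largely restates that of the second day. The median was -0.27 without the 30 h array. Of the 128, limma called 0 at the same threshold, against 3 of 10982 genes (0.0273%). At an unadjusted p under 0.05 the difference between the steps was below 0 for 42 of the 128 (32.8%) and above 0 for 0. Over all genes these were 308 (2.8%) and 691 (6.29%), and of the 235 genes 59 (25.1%) and 1 (0.426%). Most member genes had their highest value on the third day: 109 of the 128 between 54 and 72 h (25.5% of all genes), 61 of them at 60 h (8.82% of all genes). The rule fixes this in part, since it keeps the later values above the early ones. Of the 235 genes that met the rule but for the 24 h step, 154 (65.5%) had theirs between 54 and 72 h and 66 (28.1%) at 60 h. A difference between both sets was not tested. The 60 h array stood high more widely, since 66 h was below 60 h in 69.5% of all genes, against 112 of the 128. At 72 h, 119 of the 128 were within 0.5 of their highest value.

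Most other measured genes of mitosis and cytokinesis were also higher on the second day. Of a list of 62 such genes 11 were measured, 5 of them member genes (BUBR1, KINESIN-12B, 3xHMG-box1, TOPII and FU). Measured means here, and for the lists below, being among the 10982 genes kept. Other listed genes may have probe sets that the annotation or the filter left out, so the measured ones need not stand for their list. Of the other 6, 5 rose over 30 to 48 h relative to 6 to 24 h in limma (5.11% of all genes were called higher and 8.3% lower, 561 and 912 genes, and 1821 and 151 on the values as deposited), with a median log2 difference over the 6 of 1.80, against -0.25 over all genes. AUR1 and AUR2 are among these 5 but met the values of the rule, which include this difference, and were left out by name alone. Their rise is therefore a description, as for the members, and the count of 5 and the median of 1.80 include them. The others were HASPIN, AUR3, HTR12 and UBC19, which did not meet the values of the rule, and of these all but UBC19 were called. AUR1 averaged 10.15 ± 0.33 over 30 to 48 h, against 7.81 ± 1.03 over 6 to 24 h (SD, n = 4 arrays each), 5.03-fold higher. AUR2 was 4.46-fold higher. HASPIN, which encodes a kinase that marks histone H3 at centromeres in mitosis, rose 3.77-fold (limma adjusted p = 7.32e-05). AUR3 and HTR12, the gene of the centromeric histone H3, also rose, the call of HTR12 being lost without the 12 or the 18 h array. UBC19, a ubiquitin-conjugating enzyme gene, had a difference of 0.47 that was under the size threshold.

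Of a list of 29 DNA replication and S phase genes 3 were measured, MCM7, ICU2 and PSF2. None had the 24 h step, which 1.55% of all genes had, so that 3 genes say little about the list. Of the 3, 0 were called over 30 to 48 h relative to 6 to 24 h. Their log2 differences, of 0.58 to 0.72, were under the size threshold (limma adjusted p between 0.00393 and 0.0139). They are named as the whole measured list, after their values were seen. MCM7, a subunit gene of the replicative helicase, had 8.58 at 24 h, against 7.98, 8.79, 7.93 and 7.98 at 0, 6, 12 and 18 h, and ICU2, which encodes the catalytic subunit of DNA polymerase alpha, had 8.66 at 24 h, against 7.81, 8.83, 7.97 and 7.88 at these hours. PSF2, a GINS complex gene, had 7.48 at 24 h, against 7.35, 7.90, 7.11 and 7.07. In each the 6 h array was above 0, 12, 18 and 24 h, so that their 24 h step, taken from the highest of 6 to 18 h, was below 0. HTR12 also stood high at 6 h, at 8.20, against 7.30 at 0 h, and had a step of 0.33. That array is 1 sample, and a difference between the lists at 6 h was not tested.

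Of the tissue marker lists, that of mesophyll and photosynthesis was the one in which every measured gene was called. Of 6 measured mesophyll and photosynthesis genes, all 6 fell over 30 to 48 h relative to 6 to 24 h in limma, and their median level lay between 7.57 and 8.22 over 30 to 48 h, against 9.01 to 10.54 over 6 to 24 h. PRK, a Calvin cycle enzyme gene, fell 5.18-fold (adjusted p = 0.000279), RCA, the Rubisco activase gene, fell 4.45-fold (adjusted p = 8.7e-05) and SBPASE, another Calvin cycle gene, fell 3.92-fold (adjusted p = 0.00052), in limma. Of 4 measured xylem and secondary wall genes 0 were called, with a median log2 difference of 0.56, and their median level was highest on the third day, between 8.02 and 8.99. Of 4 measured procambium and cambium genes, BRL1, a brassinosteroid receptor gene, rose 2.71-fold (limma adjusted p = 0.000324), with a median over the 4 of 0.39.

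Of the phloem list, OPS was a member gene. Of the other 4 measured, CLE45, a peptide gene of the protophloem, was 3.32-fold higher over 30 to 48 h. Its values at 0 to 24 h all lay under 4.03, the lowest mean level of any gene kept, so it passed the filter through its later arrays. It therefore had to differ between early and late, and its difference is a description. SWEET11, a sucrose transporter gene, fell 2.47-fold (limma adjusted p = 0.00507), and the median over the 4 was 0.41. CLE45 stood at 2.92 at 24 h, against 2.91 at 18 h, both under 4.03. Of 2 stomatal lineage genes SPCH, the regulator that starts that lineage, fell 3.13-fold (limma adjusted p = 0.000186), and their median log2 difference was -1.09. The calls of SWEET11 and SPCH did not hold on the values as deposited. Of the callus and wound response list 0 genes were measured. For each list 0 genes were called within the second and within the third day, and the part of these tissue changes in the step of the 128 genes was not tested.

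The genes outside the 128 whose course was most like their mean over the 13 arrays were AT1G63640 (r = 0.996), AT5G15510 (r = 0.995), AT5G65580, AT3G53940 and AT4G33400 (r between 0.991 and 0.992). AT1G63640 had a 24 h step of 0.82, under the threshold, and AT5G65580 one of 2.03 but a mean over 54 to 72 h that lay 0.77 above that over 30 to 48 h. In all 30 genes outside the 128 had an r of at least 0.98. The 13 arrays share the border between the array sets, which every such course follows in part.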

How the data were processed

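Total RNA of 13 cotyledon samples was hybridised to 1 Affymetrix-type array each, labelled as biotinylated cRNA per the labels' protocols. The authors deposited 1 table of processed values, whose range fits log2 values. Not given in the sources used here are its background correction, summary method and normalization. Of tools, the submitters' processing notes list GCOS alone, without a version. Precision is limited by the number of arrays, and p-values reflect the spread among these arrays alone.

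The table held 38408 probe sets, of which the platform annotation gave 1 gene to 16722, several to 759 and none to 20927. Names were updated to TAIR10.1, in which 16574 of the 16722 matched. Arrays were centred on their medians, the lowest 30% of probe sets by mean were left out, and the probe set with the highest mean was kept per gene, leaving 10982 genes (1330 with a symbol). None of the 128 genes had a second probe set of its own above the filter.

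The models were fitted with limma 3.58.1 (R 4.3.3): 1 mean per window (0 h, 6 to 24 h, 30 to 48 h, 54 to 72 h; 9 residual degrees of freedom) and 1 mean per group of neighbouring arrays (0 h; 6 to 18 h; 24 h; 30 and 36 h; 42 and 48 h; 54 and 60 h; 66 and 72 h; 6 residual degrees of freedom), with eBayes and an intensity trend. In the latter the lone arrays of 0 and 24 h are assumed to vary like the others. Calls needed a log2 difference of at least 1 and an adjusted p (Benjamini-Hochberg, over all 10982 genes) under 0.05, which is what "rose" and "fell" mean. The limma fits of the comparisons between windows and within days, not the 24 h step, were tested on simulated data. The members and the 8 gene lists (222 entries, 210 of them matched to the annotation and 35 measured) were chosen with earlier results of these data known.

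Named genes were the 12 largest 24 h steps, members with a symbol or in a list, members called within a day (0), the 3 nearest to the step threshold on each side, up to 3 called genes of each list, genes left out by name and the 5 most alike courses. Other genes are marked in the text as chosen after their values were seen, and AUR3, HTR12, UBC19, AT1G30600 and AT4G21820 are such genes too. Alternatives were quantile normalization, values as deposited, centring on probe sets with 1 gene, filters at 10 and 50%, averaging a gene's probe sets, eBayes without a trend, array weights, a fit over the 8 arrays of 30 to 72 h, linear slopes within a day and leaving out each array. Plots were made with matplotlib 3.10.9 (Python 3.11.15).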

Additional observations from a re-analysis of the deposited data

How the results depend on the processing

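The number of genes meeting the rule lay between 119 and 153 under other scalings and filters, with all 128 kept except under the 50% filter (119), and between 118 and 166 when an array other than 0 or 24 h was left out, the highest without the 18 h array, with 117 to 128 of the 128 kept. The smallest 24 h step of the 128, 1.01 as reported, was 1.001 with quantile normalization, 1.04 with centring on probe sets with 1 gene and 1.09 on the values as deposited. Leaving out 6, 12 or 18 h cannot lower a step, and averaging probe sets changed none of the 128. Without the 24 h array the rule has no value. For 30 to 48 h against 6 to 24 h, 561 genes were higher and 912 lower. The values as deposited gave 1821 and 151. Centring on probe sets with 1 gene gave 753 and 571, and the 10% filter 581 and 1461, with 503 to 671 higher and 740 to 1266 lower without 1 array. Linear slopes and the fit over 8 arrays do not apply to that comparison. For 42 and 48 h against 30 and 36 h, where 0 and 0 were called, the counts higher and lower were 2 and 4 with the 10% filter, 8 and 85 with array weights, 6 and 47 over 8 arrays, 2 and 16 by linear slopes, and 0 to 3 and 0 to 38 without 1 array, the most without 6 h. For 66 and 72 h against 54 and 60 h, 1 call higher became 0 with the 50% filter and by slopes, 3 without a trend, 7 with array weights, 2 over 8 arrays and 0 to 3 without 1 array, and 0 lower became 0 to 1. The difference between the steps, with 3 genes called higher, had 0 with the 50% filter and by slopes, 12 with array weights and 0 to 8 without 1 array. None of the 128 was called in these 3 comparisons under any setting. Their median over the second day was 0.20 to 0.62, over the third -0.14 to -0.01 and for the difference -0.68 to -0.27 without 1 array, with 116 to 128, 67 to 104 and 116 to 126 genes in the direction reported. The second-day difference of scpl48 lay between -0.17 and 0.20 and that of IAA30 between -0.12 and 0.26 without 1 array, below 0 without 30 or 48 h for scpl48 (-0.17 and -0.01) and without 30 or 42 h for IAA30 (-0.05 and -0.12). The calls of SWEET11 and SPCH ended on the values as deposited (-0.63 and -0.97), and that of HTR12 without 12 h (0.88) or 18 h (0.95). The causes were not tested. The array weights did not reach their convergence tolerance. No paired analysis was possible because the samples carry no replicate numbers. With 1 array per time, change within a window adds to the error, and 1 array decides the 24 h step.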

Other observations

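A further 24 genes had the 24 h step and met the rule's values for 30 to 48 h over 6 to 24 h and for 6 to 24 h against 0 h. They moved on by at least 0.75 between the second and the third day. Of these, 22 were higher over 54 to 72 h and 2 lower. Another 2 genes, both named after their values were seen, had the step and met the other values of the rule. Their mean over 30 to 48 h lay less than 1 above that over 6 to 24 h. Genes with the step that missed the limit against 0 h, or more than 1 of the other values, are not counted here. AT5G43870 kept its step and missed that value by little (0.99), at 7.72 at 24 h and 7.26 to 8.03 later, against 5.84 to 6.39 at 6 to 18 h. AT3G51150 did not keep it, with 9.09 at 24 h, 8.42 at 30 h and 7.27 at 36 h, against 6.69, 7.14 and 7.79 at 6, 12 and 18 h.

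Of 15214 probe sets above the filter to which the annotation gave no gene, 140 (0.92%) met the values of the rule, with 24 h steps up to 2.47, and of 570 probe sets with several genes 8 (1.4%) did. They are not named here.

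In the gene order of TAIR10.1, 5 pairs of the 128 had at most 5 protein-coding genes between them, such as AT4G22860 and AT4G22900. Of 113 measured genes next to 1 of the 128, 1 had a 24 h step of at least 1 and 0 were among the 128. Whether the pairs are more than the spacing of genes gives was not tested.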
